A study of Homo sapiens with 30 samples.

Results

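U251 glioma cells treated with interferon-gamma (IFN-γ) for 14 days are described here against untreated U251 cells. The groups were picked by their labels, without measured values, and hold 6 of the 30 libraries in the series: 3 labelled D14 and 3 labelled Untreated. The study kept 2 human glioblastoma lines, U251 and U87, in IFN-γ for as long as 28 days and read gene expression by bulk RNA sequencing. U251 is an adherent line from a human astrocytic tumour, labelled wild type (WT) in all groups and grown in DMEM with fetal bovine serum. U251 has a history of mix-ups with other lines. Its name rests on the label here, since the study did not check its identity by short tandem repeat profiling after receipt. Untreated cells had no IFN-γ; their label gives day 3, while the study's methods place their collection at the start. D14 cells had 14 days of IFN-γ, at 1 µg/mL in the treatment protocol and 1 µL/mL in the treatment label, while the study's methods give a lower dose. The other U251 groups have 3 libraries each: 3 days of IFN-γ (D3), 28 days (D28), and 14 days followed by culture without it to day 28 (D28WO). No untreated library carries day 14, so time in culture and IFN-γ cannot be told apart. Replicates are labelled biological, which the methods describe as cultures kept and treated apart from each other, so p-values measure the spread between cultures of a single line.

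IFN-γ is the cytokine with which T cells and natural killer cells act on almost every other cell type. It binds the receptor chains IFNGR1 and IFNGR2 and acts through the kinases JAK1 and JAK2 on genes with gamma-activated sites (GAS), such as IRF1. IRF1 helps to switch on CIITA, the master regulator of MHC class II genes, while STAT2 and IRF9 act at interferon-stimulated response elements (ISRE) at antiviral genes. In glioma cells IFN-γ is known for raising antigen presentation and the T-cell inhibitory ligand PD-L1.

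Levels are given in TPM, the share of a library's transcripts that a gene takes after scaling by its length, so the values do not carry the depth of each library. The 6 glioma markers GFAP, NES, VIM, SOX2, CD44 and S100B were present in every library, with a summed level of 3773, 3775 and 3703 TPM in Untreated and 2971, 2784 and 2577 TPM in D14. GFAP, the intermediate filament of astrocytes, read 1309, 1246 and 1219 TPM in Untreated and 809.9, 703 and 627 TPM in D14. Genes with any signal numbered 27187, 25773 and 24450 in the Untreated libraries and 29771, 27763 and 28308 in the D14 libraries. The D14 mean was higher by 2811 genes, with a two-sided exact permutation p = 0.1, the smallest that 3 against 3 libraries allow. Its part in the differences described here was not tested.

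The libraries labelled D14 do not follow the order of the days in their labels. Many interferon-regulated genes, all 14 tested MHC class II genes among them, stood lower at D14 than after 3 days, after 28 days and at D28WO, where IFN-γ had been withdrawn. CD74, the invariant chain of MHC class II, averaged 573 TPM at D3, 71.2 TPM at D14, 589 TPM at D28 and 586 TPM at D28WO, against 1.62 TPM in Untreated. In the D28WO libraries, class II genes such as CD74 stood near the D3 level. The cause of this order was not tested, and D14 below means the libraries with that label.

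In a principal component analysis of all 15 U251 libraries, D14 stood between Untreated and both D3 and D28 on the first component, which held 30.2% of the variance. The Untreated libraries lay at -72.52, -75.62 and -82.34 and the D14 libraries at -8.73, -13.05 and -8.2, while D3 and D28 lay on the positive side. D28WO lay beside D14 there, at -4.71, -3.52 and -5.26. On the second component (15.2%) these groups were apart, with D14 at 38.26, 37.89 and 39.45 and D28WO at -52.18, -49.77 and -53.61.

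Apart from the histone pair H2AC19 and H2AC18, described below, the largest rises named here were in antiviral, MHC class II and chemokine genes. RSAD2, the antiviral enzyme viperin, rose from a mean of 0.634 ± 0.434 TPM in Untreated to 93.9 ± 10.6 TPM in D14 (SD, n = 3). MHC class II genes, chemokine genes and most mitotic genes rose, while most ribosomal protein genes and several glial and matrix genes fell. The ribosomal count depends on the scaling: 64 of 83 fell as reported, and 23 fell after quantile normalization. Matrix genes gave 5 rises and 10 falls as reported, and 8 and 7 after it. Of 22875 genes tested, 3351 (14.6%) were higher and 1771 (7.74%) were lower in D14 at an adjusted p under 0.05. Counts of rises and falls in the gene lists below are to be read beside these shares. Among these, 1150 (5.03%) were higher by more than 2-fold and 258 (1.13%) were lower by more than 2-fold. Adjusted p-values come from limma with Benjamini-Hochberg adjustment over all genes tested. Fold changes are log2 differences of (TPM + 1), which understate the change of genes with low levels. The median difference over all genes was 0.094 on that scale. After quantile normalization the 2-fold counts were 720 higher and 497 lower, so the share of higher calls was 59.2% in place of 81.7%. Without the D28WO libraries in the fit the 2-fold counts were 1125 and 245.

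Genes were also split by their mean in whichever group was higher, a level that depends on the change itself. Under 3 TPM 303 of 6478 genes were higher and 34 lower by more than 2-fold, and between 3 and 10 TPM 412 of 3655 were higher and 80 lower. Between 10 and 100 TPM 390 of 9254 were higher and 122 lower, and at 100 TPM or more 45 of 3488 were higher and 22 lower. By class, 702 of 14650 protein-coding genes and 360 of 6114 long noncoding RNA genes were higher by more than 2-fold, and 166 and 67 were lower.

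MHC class II presentation genes rose together in D14. These genes load peptides from outside the cell for CD4 T cells. Of 15 members 14 could be tested, and all 14 rose, 13 of them by more than 2-fold. The median log2 difference was 2.68 against 0.094 over all genes. Members near 0 in Untreated, such as HLA-DRA, passed the filter through their D14 level and could only be seen to rise. HLA-DRA, the alpha chain of HLA-DR (chr6:32439878-32445046), was listed at 0 in all 3 Untreated libraries and read 44.8, 53.7 and 50.4 TPM in D14. HLA-DRB1, its beta chain, read 0.218, 0 and 0.555 TPM in Untreated and 56.4, 56.6 and 58.6 TPM in D14. Together the chains form the molecule that holds the peptide at the cell surface. CD74 (chr5:150401637-150412969) read 1.04, 0.942 and 2.88 TPM in Untreated and 70.4, 75.9 and 67.4 TPM in D14, a log2 difference of 4.86 (SE 0.208, limma adjusted p = 1.8e-09). The invariant chain fills the peptide groove of new class II molecules. HLA-DPA1 and HLA-DPB1, the chains of HLA-DP, rose by 5.35 and 5.22 on the log2 scale. HLA-DMB, which helps exchange peptides in the class II groove, rose by 3.04, and CTSS, the protease that trims the invariant chain, by 1.45. HLA-DRB5 was listed at 0 in Untreated and read 2.35, 0.782 and 2.47 TPM in D14. Reads of the HLA genes may be shared between near-identical members, so their single values are uncertain.

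CIITA (chr16:10866222-10943021) read 2.65, 1.76 and 1.21 TPM in Untreated and 8.1, 7.48 and 6.85 TPM in D14, a log2 difference of 1.59 (limma adjusted p = 3.6e-06). The groups did not overlap, and both lay far below the D3 mean of 130.5 TPM. Against D3, CIITA was lower in D14 by a log2 difference of -3.96 (limma adjusted p = 9.9e-10). All 14 class II genes were lower in D14 than in D3, D28 and D28WO, with median log2 differences of -2.14, -2.55 and -1.87. The 4 comparisons share the D14 libraries, so their values are not independent of each other. Of all genes tested, 13.6%, 9.87% and 16.8% were higher in D14 than at D3, D28 and D28WO. In the same order, 12.3%, 10.5% and 10.7% were lower. HLA-DOA, a modulator of HLA-DM, averaged 0.083 TPM in Untreated and 6.22 TPM in D14 against 134 TPM at D3.

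Antiviral genes of the type I interferon response rose in D14 over Untreated. Of 36 genes tested, 34 rose and none fell, 28 of them by more than 2-fold, with a median log2 difference of 1.89. RSAD2 (chr2:6865557-6898239) read 0.138, 0.824 and 0.94 TPM in Untreated and 96.3, 82.3 and 103 TPM in D14, a log2 difference of 5.89 (SE 0.174, limma adjusted p = 4.2e-11). Viperin makes a nucleotide that ends the RNA chains of viruses. OAS2 (chr12:112978395-113011723), which makes the activator of RNase L once it binds double-stranded RNA, read 3.13, 2.48 and 1.61 TPM in Untreated and 110.3, 106 and 106 TPM in D14. IFI27, an interferon-induced mitochondrial protein, read 2.42, 5.55 and 0.678 TPM in Untreated and 173, 204 and 182 TPM in D14. The rule that named the largest changes asks for groups without overlap, so the separation of such genes adds no support. List examples, here and below, were partly picked as the largest change each way, so a lack of overlap in them adds no support either. CMPK2, the nucleotide kinase beside RSAD2, and OASL, an OAS-like antiviral protein, rose by 5.48 and 4.3 on the log2 scale. IFIT1, which binds viral RNA caps, rose from 17.2 ± 0.168 to 60.6 ± 1.43 TPM (SD, n = 3), and BST2, which tethers budding viruses, from 17.9 ± 1.78 to 186 ± 9.42 TPM. IFITM3, the most abundant member and a block to viral entry, rose by 0.46 (limma adjusted p = 0.011), a call that was lost in 1 of 15 alternatives. The exceptions were ISG20, an exonuclease, at 0.1 (adjusted p = 0.69) and IFITM2 at 0.08 (adjusted p = 0.74), whose sign changed in 3 and 1 of 15 alternatives.

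Against D3, 19 of the 36 antiviral genes were lower in D14 and 17 gave no call, with a median of -0.28. RSAD2 averaged 93.9 ± 10.6 TPM in D14 and 100.1 ± 16 TPM in D3 (SD, n = 3), a log2 difference of -0.09 (limma adjusted p = 0.77). OAS2 averaged 108 ± 2.4 TPM and 119 ± 6.67 TPM (log2 -0.14, adjusted p = 0.44), and IFI27 differed by 0.37 (adjusted p = 0.46). A missed threshold does not show that these levels were alike. Against D28 and D28WO, 25 and 31 of the 36 were lower in D14, with medians of -0.49 and -0.58. No test compared the antiviral and class II lists with each other.

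**Figure D1:**
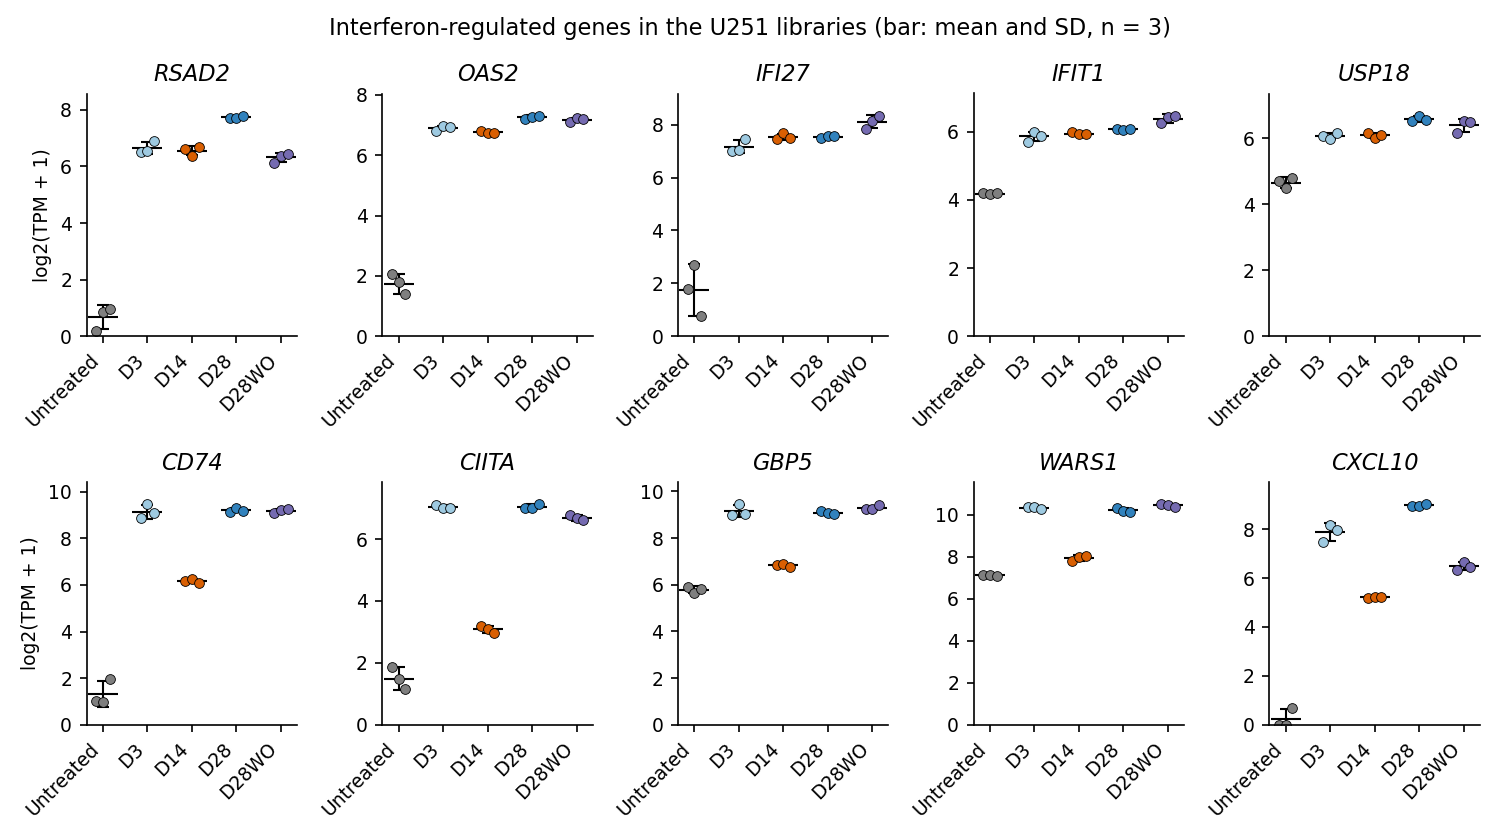
Each panel plots a gene's log2(TPM + 1) on the y axis in the 3 libraries of each U251 group on the x axis, with a bar for the mean and SD. In the upper panels D14 lies nearer to D3 than to Untreated; in the lower panels D14 lies below every D3, D28 and D28WO library and averages 71.2 TPM for CD74 and 7.48 TPM for CIITA, against 573 and 130.5 TPM at D3.

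As most members of the antiviral and class II lists rose over Untreated, the promoters of these and other listed genes were searched for the ISRE core (2 GAAA boxes 2 bases apart) and the GAS (TTC and GAA 3 bases apart) on both strands. Windows of 300 bases, 250 before and 50 after each start, came from RefSeq (GRCh38.p14), with 35116 windows for 27305 symbols. Over all windows 3.57% held the ISRE core and 7.66% held the GAS. For the antiviral list, 30 of 36 genes matched 41 windows, of which 24 (58.5%) held the ISRE core and 8 (19.5%) the GAS. These shares count windows and not genes. Windows of a gene can overlap, as for IFI27 and IFI44, so the same site can be counted more than once. Class II genes had 13 windows for 12 matched genes, of which none held the ISRE core and 1 (7.69%) held the GAS. Among the guanylate-binding protein genes 3 of 5 windows held the ISRE core and 1 held the GAS. Among the chemokine genes 2 of 13 (15.4%) held the ISRE core and 5 (38.5%) the GAS. The ISRE core was also in 4 of 6 windows of immunoproteasome genes and in 7 of 14 windows of PARP, PML and TRIM genes. No window was found for OAS2, GBP2, GBP5, CIITA or HLA-DRA. Windows of 5 genes are printed, 5′ to 3′ on the strand of the gene, with ISRE and GAS matches in capitals. BST2 (chr19:17405581-17405880, minus strand) and IFIT1 (chr10:89392373-89392672, plus strand) are antiviral genes. GBP1 (chr1:89065159-89065458, minus strand) encodes a guanylate-binding protein, IRF1 (chr5:132490724-132491023, minus strand) a transcription factor and CD274 (chr9:5450292-5450591, plus strand) the ligand PD-L1. BST2 held 2 ISRE cores that share bases with each other, and 2 GAS matches, of which 1 shares bases with an ISRE core. IFIT1 held 2 ISRE cores, GBP1 held 1 and IRF1 held 1 GAS match. CD274 held 2 ISRE cores that share bases with each other, and 1 GAS match. A match describes these letters only.
BST2: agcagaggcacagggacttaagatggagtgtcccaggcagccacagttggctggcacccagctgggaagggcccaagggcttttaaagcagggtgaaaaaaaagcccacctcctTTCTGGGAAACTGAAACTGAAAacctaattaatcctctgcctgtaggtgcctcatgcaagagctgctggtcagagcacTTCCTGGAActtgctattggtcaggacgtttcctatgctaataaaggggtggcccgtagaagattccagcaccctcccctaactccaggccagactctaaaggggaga
IFIT1: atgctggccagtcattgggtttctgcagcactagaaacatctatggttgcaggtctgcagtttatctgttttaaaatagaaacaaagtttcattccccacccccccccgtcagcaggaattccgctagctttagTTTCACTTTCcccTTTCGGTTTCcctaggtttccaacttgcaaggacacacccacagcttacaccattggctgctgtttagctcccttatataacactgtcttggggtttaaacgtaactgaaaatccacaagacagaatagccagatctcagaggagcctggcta
GBP1: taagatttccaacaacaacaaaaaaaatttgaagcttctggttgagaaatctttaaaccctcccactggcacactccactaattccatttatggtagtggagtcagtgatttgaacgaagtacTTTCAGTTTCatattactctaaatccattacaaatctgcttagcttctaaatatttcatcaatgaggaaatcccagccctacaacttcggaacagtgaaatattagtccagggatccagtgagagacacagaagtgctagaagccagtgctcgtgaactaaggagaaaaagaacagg
IRF1: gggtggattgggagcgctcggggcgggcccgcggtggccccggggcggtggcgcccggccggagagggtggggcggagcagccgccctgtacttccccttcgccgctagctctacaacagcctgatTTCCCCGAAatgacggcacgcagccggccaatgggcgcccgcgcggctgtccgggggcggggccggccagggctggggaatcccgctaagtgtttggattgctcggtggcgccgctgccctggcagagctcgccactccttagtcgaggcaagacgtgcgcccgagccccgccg
CD274: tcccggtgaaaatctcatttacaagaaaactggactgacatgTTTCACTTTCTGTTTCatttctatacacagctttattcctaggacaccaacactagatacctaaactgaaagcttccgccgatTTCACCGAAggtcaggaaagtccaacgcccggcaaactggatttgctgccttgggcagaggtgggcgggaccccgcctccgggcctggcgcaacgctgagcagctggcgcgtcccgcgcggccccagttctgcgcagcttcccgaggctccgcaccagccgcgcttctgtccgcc

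IFN-γ signaling genes were divided. Of 11 tested members of the receptor and JAK-STAT list 4 rose, 2 fell and 5 gave no call, with a median of 0.03 that turns to -0.05 after quantile normalization and -0.07 with median-ratio scaling. IRF9 read 34.1, 36.3 and 34 TPM in Untreated and 91, 89 and 91.3 TPM in D14, a log2 difference of 1.35 (SE 0.065, limma adjusted p = 5.7e-09). STAT2, its partner at ISREs, rose by 1.02, while JAK1 and STAT3 fell by 0.27 and 0.25 on the log2 scale, the call of JAK1 being lost in 1 of 15 alternatives. JAK2 read 8.81, 14.4 and 6.53 TPM in Untreated and 14, 15.8 and 13.4 TPM in D14, so the groups overlapped and gave no call (adjusted p = 0.052) except in 3 of 15 alternatives, against a mean of 59.5 TPM at D3. IRF1 rose by 1.08 over Untreated and was lower than at D3 by a log2 difference of -0.96.

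Among negative regulators 5 of 9 tested rose and none fell, with a median of 0.3, while 3 rose and 1 fell both after quantile normalization and with median-ratio scaling. SOCS1, the inhibitor of JAK kinases, read 2.79, 2.84 and 2.84 TPM in Untreated and 11.5, 9.13 and 6.94 TPM in D14 (log2 1.39, limma adjusted p = 1.3e-05). The groups lay apart, and the mean at D3 was 35.8 TPM. USP18, which removes ISG15 and restrains the type I receptor, rose from 24.3 ± 2.76 to 66.9 ± 3.98 TPM (SD, n = 3) and averaged 66.3 TPM at D3. Its difference from D3 was 0.01 (adjusted p = 0.95), while SOCS1 was lower than at D3 by a log2 difference of -1.87 (adjusted p = 6.3e-07).

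Class I presentation genes, which show peptides from inside the cell to CD8 T cells, mostly rose. Of 17 class I genes tested 12 rose, 2 fell and 3 gave no call, with a median of 0.6. Shares over all genes tested were 14.6% rising and 7.74% falling. NLRC5, the class I transactivator (chr16:56989485-57083531), read 62.2, 56.5 and 59.1 TPM in Untreated and 171, 186 and 166 TPM in D14, a log2 difference of 1.54 (limma adjusted p = 1.8e-08). Every D14 library was higher. TAP1 and TAP2, the peptide transporter, rose by 1.11 and 1.1. PDIA3 and CALR, chaperones of the loading complex, fell by 0.45 and 0.33 on the log2 scale, the call of CALR being lost in 1 of 15 alternatives. Against D3, 13 of the 17 were lower and 1 was higher in D14. In the immunoproteasome list 4 of 5 rose (median 0.64) and all 5 were lower than at D3. PSME1, an activator cap subunit, was the exception against Untreated at 0.17 (adjusted p = 0.14), with a call in 1 of 15 alternatives. Of 14 genes of the constitutive proteasome core PSMA3 rose, by 0.21, which was lost in 8 of 15 alternatives, and 13 gave no call. After quantile normalization 5 of the 14 rose, and with median-ratio scaling none did.

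Guanylate-binding proteins, which attack vacuoles of intracellular pathogens, rose over Untreated but stood far below D3. Of 6 tested 5 rose (median 1), and all 6 were lower than at D3 by more than 2-fold (median -1.72). GBP5 (chr1:89256189-89272860) read 59.1, 48.9 and 55.5 TPM in Untreated and 113, 117 and 108 TPM in D14 (log2 1.04, limma adjusted p = 1.2e-05), against a D3 mean of 579 ± 105 TPM (SD, n = 3). The D14 values lay above all Untreated and below all D3 libraries. GBP2 read 79.5, 76.2 and 90.6 TPM and 97.7, 97.4 and 97.3 TPM and gave no call (adjusted p = 0.1), though it passed the test in 1 of 15 alternatives. Reads may be shared among these neighbouring paralogs. Apolipoprotein L genes, a cluster on chromosome 22 that includes the trypanosome-killing factor APOL1, showed the same order: 5 of 5 rose over Untreated (median 1.31) and 5 of 5 were lower than at D3 (median -1.39). APOL3 rose by 1.7, and the rise of APOL1 by 0.25 was lost in 9 of 15 alternatives. Reads of these paralogs may be shared as well.

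Of 14 PARP, PML and TRIM genes, which encode interferon-induced nuclear and ubiquitin-ligase proteins, 12 rose with a median of 0.79. SP110, a nuclear body protein, rose by 1.58 and TRIM22, a restriction factor, by 1.33. PARP14 fell by 0.4 on the log2 scale, from 121, 113 and 119 TPM in Untreated to 95.1, 95.5 and 78.4 TPM in D14, and averaged 162 TPM at D3. PARP9 gave no call (log2 0.07, adjusted p = 0.37), and its sign changed in 1 of 15 alternatives. Against D3, 11 of the 14 were lower in D14.

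**Figure D2:**
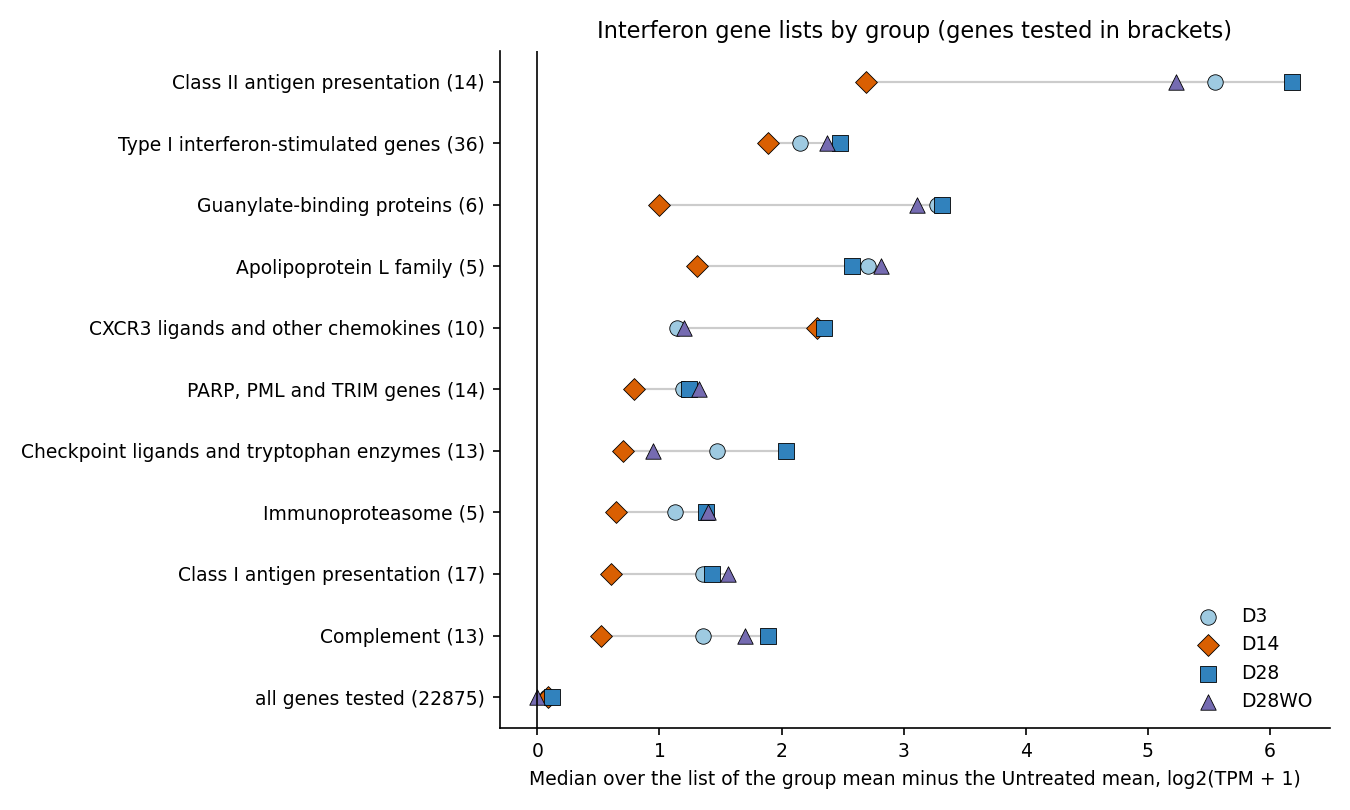
The x axis gives the median over each gene list of the group mean minus the Untreated mean in log2(TPM + 1), for D3, D14, D28 and D28WO; rows are lists with the number of genes tested. D14 stands lowest for class I, class II, guanylate-binding protein and type I genes, but not for the chemokines or all genes. Its median is 1 for guanylate-binding proteins against 3.27 at D3, and 1.89 for type I genes against 2.15. Lists that are not plotted can have another order: the median is 0.3 at D14 and 0.02 at D3 for negative regulators, and 0.28 and -0.01 for NF-kB genes.

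Chemokine genes rose in D14, and some stood above D3. Of 16 members 10 could be tested, and all 10 rose over Untreated (median 2.29), 9 by more than 2-fold. Members near 0 in Untreated, such as CXCL10 and CCL20, passed the filter through their D14 level. They could only be seen to rise, so this count adds no support by itself. CXCL8, the neutrophil attractant (chr4:73740519-73743716), read 27.9, 34 and 32.9 TPM in Untreated and 143, 172 and 153 TPM in D14, a log2 difference of 2.27 (SE 0.11, limma adjusted p = 5.7e-09). The groups were far apart, and D14 was also higher than D3 by 1.53 (adjusted p = 4.2e-07). CXCL2 and CXCL3, which bind the same receptor, rose by 2.32 and 2.76 over Untreated and by 1.85 and 1.36 over D3. CCL2, the monocyte attractant, read 23.7, 17.8 and 21.4 TPM in Untreated and 54.9, 59.3 and 57.1 TPM in D14, and was higher than at D3 by 1.48. In contrast, the T-cell attractants CXCL10 and CXCL11, ligands of CXCR3, were lower than at D3. CXCL10 read 0, 0 and 0.608 TPM in Untreated and 35.5, 36.4 and 36.5 TPM in D14, against means of 239 TPM at D3 and 504 TPM at D28. CXCL11 was lower than at D3 by a log2 difference of -3.26. CCL20 was listed at 0 in Untreated and read 4.61, 1.75 and 2.8 TPM in D14. In all, 4 of the 10 were higher and 3 lower than at D3.

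NF-kB genes rose in part. Of 19 tested 8 rose and none fell over Untreated (median 0.28), where 14.6% of all genes tested rose and 7.74% fell. Compared with D3, 10 were higher and 2 lower, where the shares over all genes were 13.6% and 12.3%. TNFAIP3, the feedback inhibitor A20, rose by 1.79 and RELB, an NF-kB subunit, by 1.15. CSF2, the growth factor GM-CSF, rose by 2.32, or by 3.59 with a pseudocount of 0.1, with 4.04, 1.78 and 0 TPM in Untreated and 9.77, 9.55 and 14.3 TPM in D14. ICAM1, the adhesion ligand for leukocytes, read 7.08, 7.77 and 5.36 TPM in Untreated and 33.5, 39.5 and 29.4 TPM in D14 but averaged 154 TPM at D3. The most abundant member, the macrophage growth factor CSF1, gave no call (log2 0, adjusted p = 0.97), with another sign in 4 of 15 alternatives.

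Genes of checkpoint ligands and of enzymes that act on tryptophan were mixed: 8 of 13 rose, none fell and 5 gave no call (median 0.7). LGALS9, the ligand of TIM-3, read 1.82, 4.55 and 3.5 TPM in Untreated and 47.6, 48.3 and 40.2 TPM in D14, a log2 difference of 3.48 (limma adjusted p = 1e-07). Every D14 library was higher. IDO1, the first enzyme of tryptophan breakdown, read 8.12, 8.24 and 7.55 TPM in Untreated and 46.7, 36 and 52.6 TPM in D14, against a D3 mean of 346 TPM. WARS1, the tryptophanyl-tRNA synthetase (chr14:100333790-100376805), read 142, 139.7 and 133 TPM and 219.7, 255 and 267 TPM, against 1305 TPM at D3. Both rose over Untreated and both were lower than at D3, by log2 differences of -2.93 and -2.4. CD274, which encodes PD-L1, read 24.8, 38.5 and 24.8 TPM in Untreated and 34.4, 34.1 and 36.6 TPM in D14. The ranges overlapped and there was no call (log2 0.28, limma adjusted p = 0.17), whereas D3 averaged 133 TPM. The test was passed in 1 of 15 alternatives, without Untreated replicate 2, at 0.48 (limma adjusted p = 0.0041). Against D28, 11 of the 13 were lower in D14.

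Complement genes were mixed as well. Of 13 tested 6 rose, 2 fell and 5 gave no call (median 0.52), while 10 were lower and 2 higher than at D3. Over all genes tested 14.6% rose and 7.74% fell, and 12.3% were lower and 13.6% higher than at D3. C3, the central component (chr19:6677704-6730562), read 7.72, 7.9 and 6.62 TPM in Untreated and 107, 116 and 116 TPM in D14, a log2 difference of 3.76 (limma adjusted p = 2.9e-10). SERPING1, the C1 inhibitor, rose from 3.83 ± 2.75 to 48.5 ± 3.66 TPM (SD, n = 3). Both groups of values lay apart. CFI and CD59, which restrain complement, fell by 0.41 and 0.57 on the log2 scale. CFB gave no call over Untreated (adjusted p = 0.35) at a D14 mean of 82 TPM against 159 TPM at D3. In the cell death list 8 of 17 rose and none fell (median 0.27), with 6 rises and 1 fall with median-ratio scaling. XAF1, an inhibitor of the apoptosis blocker XIAP, rose from 12 ± 4.88 to 214 ± 9.21 TPM, and AIM2, a DNA sensor, from 0.0989 ± 0.0986 to 4.79 ± 2.03 TPM. MLKL, the effector of necroptosis, rose by 1.18.

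Mitotic genes rose in D14. Of 54 genes of the G2 and M phases 44 rose and none fell, with a median of 0.6, and 38 were higher than at D3. GTSE1, a regulator of G2 and p53 (chr22:46296870-46330810), read 26.3, 24.9 and 23.1 TPM in Untreated and 59.1, 56.2 and 64.1 TPM in D14, a log2 difference of 1.24 (limma adjusted p = 4e-06). MKI67, the proliferation marker Ki-67, read 53.2, 55.5 and 53.2 TPM and 80.3, 111 and 91.3 TPM. D14 was higher in every library for both genes, and both were also higher than at D3, by 1.49 and 0.66. SMC4, the most abundant member and a condensin subunit, gave no call (adjusted p = 0.06) except in 1 of 15 alternatives. In a bulk sample more cells in a phase and more RNA per cell cannot be told apart. Of 43 S-phase genes 23 rose and none fell (median 0.3). Of these 43, 39 were higher than at D28WO, against 16.8% of all genes tested, with a median of 0.96 against 0.106. Replication licensing genes gave 9 rises of 18 (median 0.31), and all 18 were higher than at D28WO (median 1.16). RRM2, the ribonucleotide reductase subunit, read 167, 170.1 and 185 TPM in Untreated and 218, 289 and 238 TPM in D14 and averaged 48.9 TPM at D28WO.

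Inhibitors of the cycle did not move one way. Of 21 CDK inhibitor, G1 cyclin and p53-target genes tested 10 rose, 2 fell and 9 gave no call (median 0.4). Shares over all genes tested were 14.6% rising and 7.74% falling. CDKN1A, the CDK inhibitor p21 (chr6:36676460-36687337), read 41.6, 41.7 and 39.5 TPM in Untreated and 93.7, 97.3 and 102 TPM in D14, a log2 difference of 1.23 (limma adjusted p = 4.7e-07). All D14 values were higher, and D14 exceeded D3 by 0.91 and D28 by 0.4. GDF15, a stress-induced cytokine, rose from 41.2 ± 7.28 to 115 ± 3.18 TPM (SD, n = 3). BTG2, an antiproliferative gene, and CDKN1B, the inhibitor p27, fell by 1.1 and 0.34 on the log2 scale. CDKN2A, the inhibitor p16, was listed at 0 in all D14 libraries and read 0, 0.586 and 0 TPM in Untreated.

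Of 58 tested histone genes of the kind expressed during DNA replication 28 passed the test as higher and 1 as lower, with a median of 1.11. The lower call and 1 of the higher calls belong to a single pair, which is not read as a fall and a rise. H2AC19 and H2AC18, which encode identical or near-identical H2A proteins on chromosome 1, had the largest differences each way. H2AC19 read 0.658, 0.381 and 0.821 TPM in Untreated and 112, 109 and 111 TPM in D14, while H2AC18 read 74.7, 82.3 and 75.3 TPM and 1.34, 0.0894 and 0.000153 TPM. The values traded places between the members, and 1 D3 and 1 D28 library also had the H2AC19 form. Reads of this pair may be assigned to either copy, so only the sum is read. It was 78.1 ± 4.03 TPM in Untreated and 111 ± 2.15 TPM in D14 (SD, n = 3), with a two-sided exact permutation p = 0.1. H2AC6, the most abundant histone gene of the list, rose by 0.57.

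**Figure D3:**
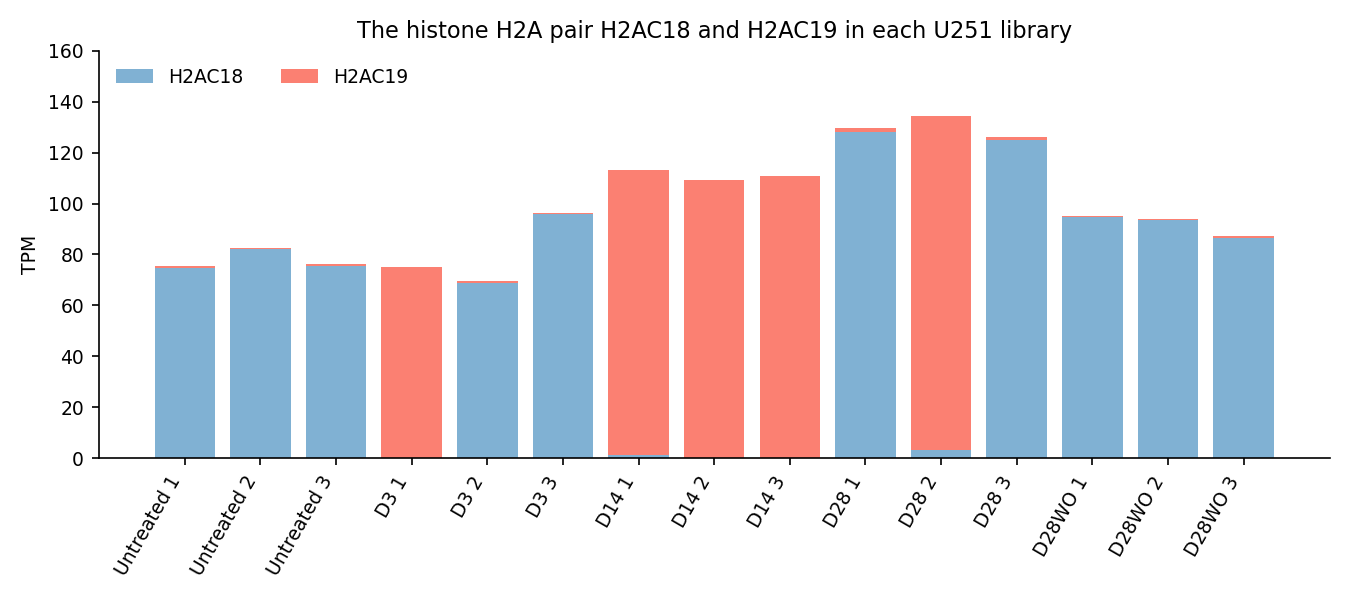
Stacked bars give the TPM of H2AC18 and H2AC19 on the y axis for each U251 library on the x axis. The 3 Untreated libraries hold nearly all signal in H2AC18 and the 3 D14 libraries in H2AC19, with sums averaging 78.1 and 111 TPM.

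Several glial genes fell in D14 from Untreated, and several stood higher than at D3. Of 16 neural stem and glial genes tested 2 rose, 7 fell and 7 gave no call (median -0.16), and 9 were higher and none lower than at D3. The 2 rises are near the 14.6% of all genes tested that rose, while 7.74% fell. Compared with D3, 13.6% of all genes were higher and 12.3% lower. GFAP (chr17:44903159-44916937) fell by 0.82 on the log2 scale (SE 0.091, limma adjusted p = 2.7e-05), with no overlap between the values given above, and by 0.48 after quantile normalization. It was higher than at D3 by 1.06. PTPRZ1, a receptor phosphatase of glial cells, read 179, 172 and 179 TPM in Untreated and 100.3, 89.6 and 70.9 TPM in D14. PDGFRA, the growth factor receptor of glial progenitors, read 201, 221 and 217 TPM and 132, 132 and 120.2 TPM, against 29 TPM at D3. Neither gene's groups overlapped. HES1 and HEY1, targets of Notch, were the 2 that rose, by 0.62 and 0.51. Of the 6 glioma markers 5 fell (median -0.44), and the falls of S100B, SOX2 and CD44 were each lost in 1 of 15 alternatives. CD44 stood at -0.05 after quantile normalization (limma adjusted p = 0.56). S100B and SOX2 missed the threshold without D14 replicate 3, at -0.53 and -0.28. The other, the filament gene VIM, gave no call at -0.11 (adjusted p = 0.31) but turned to a rise of 0.26 after quantile normalization (limma adjusted p = 0.036).

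Matrix genes fell more often than they rose: of 28 extracellular matrix and mesenchymal genes tested 5 rose and 10 fell (median -0.15), a balance that became 8 and 7 after quantile normalization. The 5 rises are near the 14.6% of all genes tested that rose, while 7.74% of all genes fell. SPARC, a collagen-binding matrix protein and the most abundant member (chr5:151661096-151686975), read 2069.9, 2123 and 2081 TPM in Untreated and 1355, 1266 and 1213 TPM in D14 (log2 -0.71, limma adjusted p = 0.00033). COL1A2, a chain of type I collagen, read 316, 322 and 333 TPM and 193, 203 and 180.4 TPM. Both fell with no overlap between groups, and SPARC stood at -1.27 after quantile normalization. LOX, which cross-links collagen, rose by 0.99, and SNAI2, a transcription factor of epithelial-mesenchymal transition, by 1.19.

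Lipid synthesis, glycolysis and translation genes fell in part. Of 25 cholesterol and fatty acid synthesis genes none rose and 6 fell over Untreated (median -0.14), and 16 were higher than at D3. SREBF1, the regulator of lipogenesis, read 122, 113 and 115 TPM in Untreated and 61.8, 72.2 and 51.5 TPM in D14, and SCD, the fatty acid desaturase, fell by 0.8 on the log2 scale (limma adjusted p = 2.4e-07). No D14 value reached the Untreated range for SREBF1. Of 23 glycolysis and hypoxia genes 1 rose and 9 fell (median -0.19), with 2 rises and 2 falls after quantile normalization and 1 rise and 15 falls with median-ratio scaling. CA9, the hypoxia-induced carbonic anhydrase, fell by 0.73, and ADM, adrenomedullin, rose by 0.48. Of 83 ribosomal protein genes none rose and 64 fell (median -0.26), but after quantile normalization 1 rose and 23 fell. RPS27 read 556, 589 and 582 TPM in Untreated and 379, 384 and 411 TPM in D14, and RPL26, the most abundant, 831, 890.4 and 876 TPM and 667, 661 and 626 TPM, a fall lost in 1 of 15 alternatives.

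**Figure D4:**
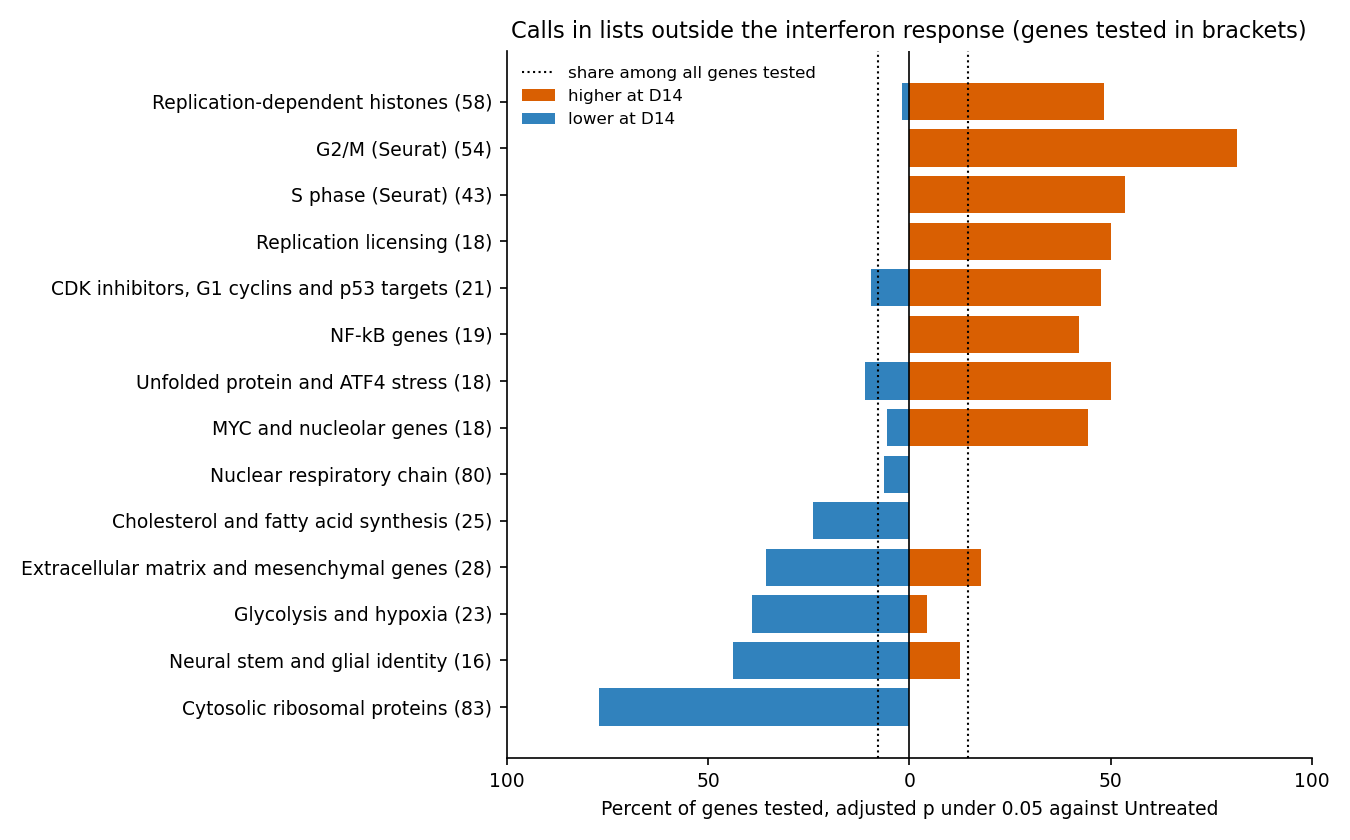
Bars give the percent of tested genes, on the x axis, in lists outside the interferon response that were higher (right) or lower (left) in D14 than in Untreated at an adjusted p under 0.05; rows are lists with the number tested and dotted lines mark the 14.6% and 7.74% among all genes. Of the lists plotted, G2/M genes reach farthest to the right with 44 of 54, and ribosomal protein genes farthest to the left with 64 of 83, a count that is 23 after quantile normalization.

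Stress genes of the unfolded protein response and ATF4 were divided, with 9 of 18 rising and 2 falling (median 0.16), or 7 and 3 with median-ratio scaling (median 0.06). Of the 18, 10 were lower and 3 higher than at D3. CHAC1, a glutathione-degrading target of ATF4, read 22.6, 21.1 and 17.2 TPM in Untreated and 58.3, 65.9 and 62.6 TPM in D14 (log2 1.58, limma adjusted p = 7.5e-07). The groups lay apart. DDIT3, the transcription factor CHOP, and SLC7A11, the cystine transporter, rose by 1.1 and 1.14. The chaperones HSP90B1 and HSPA5 of the endoplasmic reticulum fell by 0.43 and 0.34 on the log2 scale, and each by 0.19 after quantile normalization. AP-1 and EGR factors, the immediate early genes, gave 4 rises and 5 falls of 15 over Untreated (median -0.12), with 4 and 3 after quantile normalization and 3 and 6 with median-ratio scaling. Against D3, 14 of the 15 were higher in D14 (median 1.05). FOSB read 144, 125 and 112 TPM in Untreated and 185, 175 and 124 TPM in D14, with overlapping ranges and no call (adjusted p = 0.16), and averaged 12.4 TPM at D3. The test was passed in 1 of 15 alternatives. FOS, the most abundant member, read 382, 349 and 387 TPM and 396, 387 and 332 TPM, with a log2 difference of -0.01 (adjusted p = 0.98) whose sign changed in 4 of 15 alternatives. JUN fell by 0.41 and IER3, an early-response survival factor, rose by 1.8.

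**Figure D5:**
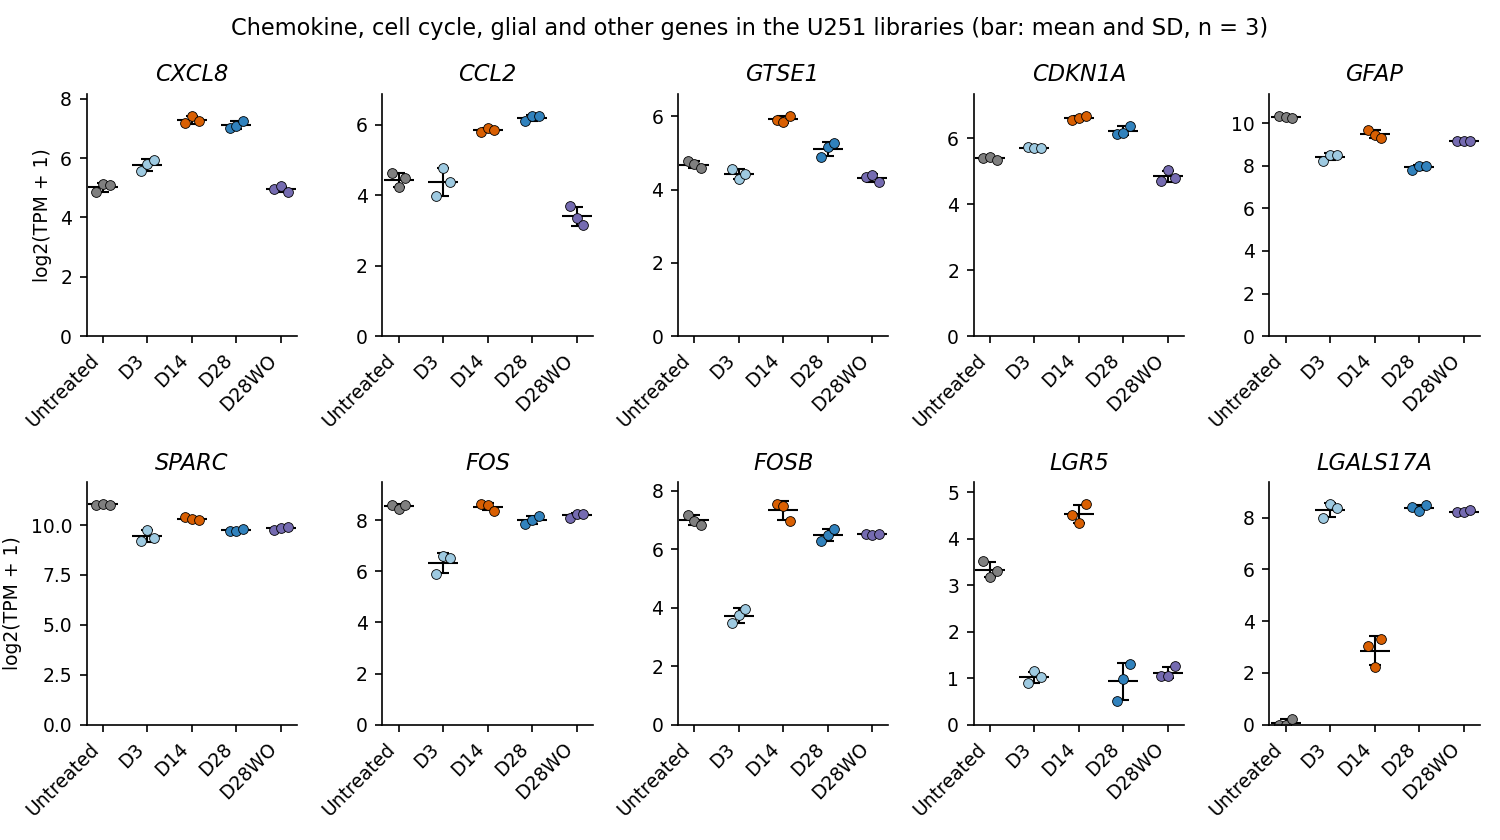
Each panel plots a gene's log2(TPM + 1) on the y axis in the 3 libraries of each U251 group on the x axis, with a bar for the mean and SD. D14 stands above all other groups for GTSE1, CDKN1A and LGR5, and averages 161 TPM for FOSB against 12.4 TPM at D3.

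Apart from H2AC18, the largest falls among genes with at least 3 TPM were led by MMP7. This gene, a matrix metalloproteinase (chr11:102520508-102530750), read 76.7, 69.7 and 66 TPM in Untreated and 8.6, 7.81 and 6 TPM in D14, a log2 difference of -3.09 (SE 0.248, limma adjusted p = 1.4e-06). The rule behind these names again asks for groups without overlap. SERPINA5, a protease inhibitor, fell by 2.86, GLDN, gliomedin of the node of Ranvier, by 2.71, and OLFML2A, an olfactomedin-like matrix protein, by 2.57 on the log2 scale. Others were the noncoding RNA PCA3 at -2.49, the peptidylarginine deiminase PADI2 at -2.48, the cilium gene CFAP107 at -2.31 and the sulfatase ARSF at -2.21. ECSCR, an endothelial surface protein, and KRT13, a keratin, stood at -2.16 and -2.15, with ECSCR at -4.36 under a pseudocount of 0.1. RN7SKP224, a 7SK pseudogene, read 4.76, 4.87 and 7.69 TPM in Untreated and was listed at 0 in all 3 D14 libraries. Its call was lost in 1 of 15 alternatives.

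Against D3, 3102 genes (13.6%) were higher and 2821 (12.3%) lower in D14, and by more than 2-fold 780 (3.41%) and 634 (2.77%). Against D28, 2258 (9.87%) were higher and 2406 (10.5%) lower, by more than 2-fold 392 (1.71%) and 787 (3.44%). Against D28WO, 3850 (16.8%) were higher and 2455 (10.7%) lower, by more than 2-fold 1315 (5.75%) and 371 (1.62%). Set against the mean of D3 and D28, 2952 (12.9%) were higher and 2861 (12.5%) lower, by more than 2-fold 497 (2.17%) and 611 (2.67%). All these counts use limma with Benjamini-Hochberg adjustment. Genes were kept for testing by their level in D14 and Untreated. Genes found mainly in D3, D28 or D28WO could thus be left out, while genes found mainly in D14 were kept. The balance of higher and lower counts against these groups may therefore lean toward higher. A filter over all libraries was run only for the comparison with Untreated. After quantile normalization the 2-fold counts against D28WO were 837 and 638, so the share of higher calls was 56.7% in place of 78%, and against D28 that share was 43.7% in place of 33.2%.

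The genes farthest above both D3 and D28 in D14 included LGR5, a stem-cell receptor for R-spondins (chr12:71439798-71586310). It read 21.7, 19.3 and 25.8 TPM in D14, 10.4, 8.09 and 8.86 TPM in Untreated and averaged 1.04 ± 0.168 TPM at D3 and 0.957 ± 0.522 TPM at D28 (SD, n = 3). The log2 differences of D14 were 3.51 from D3 (limma adjusted p = 1.2e-07) and 1.2 from Untreated (adjusted p = 0.0016). PI15, a protease inhibitor, was likewise higher than at D3 by 3.58 and than in Untreated by 1.34. CD180, a toll-like receptor homolog, and SEMA6B, a semaphorin, were higher than at D3 by 3.24 and 3 and gave no call over Untreated, though SEMA6B passed in 1 of 15 alternatives. KRT13 was higher than at D3 by 3.06 but fell from Untreated.

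The genes farthest below both were led by LGALS17A, a galectin-like gene (chr19:39679372-39686373). It read 0, 0 and 0.178 TPM in Untreated, 7.21, 3.68 and 9.03 TPM in D14 and averaged 315 ± 59.1 TPM at D3 (SD, n = 3). The log2 difference of D14 from D3 was -5.42 (limma adjusted p = 1.9e-09). GJD3, a gap junction protein, averaged 0.898 TPM in D14 and 27.5 TPM at D3, and KLHDC7B, a kelch-domain protein, 0.941 TPM and 29.6 TPM. Both rose over Untreated, but the rise of GJD3 was lost in 2 of 14 alternatives and that of KLHDC7B in 9 of 14. HLA-DOA and CIITA belonged to the same set.

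Markers of other cell types differed in level. Of 10 leukocyte markers 5 could be tested and 1, CD14, rose, a call lost in 4 of 15 alternatives. The list summed to 4.14, 5.1 and 4.98 TPM in Untreated and 10.6, 9.03 and 9.35 TPM in D14, its most abundant gene was the receptor CSF1R, and the B-cell marker MS4A1 was at 0. Endothelial markers summed to 51.7, 40.1 and 37.6 TPM and 44.1, 30.7 and 34.1 TPM, with 5 of 6 tested, KDR the most abundant and higher, and CDH5 lower, a call lost in 3 of 15 alternatives. Epithelial markers summed to 112, 105 and 110.3 TPM and 99.8, 85.2 and 98.2 TPM, with 3 of 6 tested and KRT8 the most abundant and lower, while KRT5 was listed at 0 in Untreated and rose to 0.806, 1.46 and 0.776 TPM, a call lost in 5 of 13 alternatives. Neuronal markers summed to 38.3, 38.3 and 37.9 TPM and 63.2, 40.9 and 58.7 TPM, with 5 of 6 tested, SYT1 the most abundant and SNAP25 higher, a call lost in 1 of 15 alternatives. Fibroblast markers, which U251 also expresses, summed to 680.1, 705 and 727 TPM and 472, 512 and 469 TPM, with 4 of 6 tested, THY1 the most abundant, THY1 and COL1A2 lower and LUM at 0. Their part in the differences was not tested.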

How the data were processed

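Bulk RNA sequencing values of the 15 U251 libraries were deposited by the authors as TPM, in a table for each cell line. Per the processing notes, reads were checked with FastQC, trimmed with Trim Galore, aligned to GRCh38 with STAR, counted with featureCounts and normalized with edgeR by the authors; how TPM was derived is not given in the sources used here. Libraries were grouped by label. Of 61471 symbols 22875 were tested, those averaging 0.5 TPM or more across the D14 and Untreated libraries, on log2(TPM + 1). List members near 0 in Untreated were thus tested only where D14 was higher, so counts of rises in a list include genes that could only rise. limma 3.58.1 in R 4.3.3 fitted the 5 groups in 1 model with a mean-dependent prior, so all 15 libraries share an estimate of the spread, and Benjamini-Hochberg adjustment ran over all genes tested. Library totals used two-sided exact permutation tests. Gene coordinates are from GENCODE 44 on GRCh38. S and G2/M lists came from Seurat 5.3.0. Ribosomal, respiratory and histone lists came from symbols.

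Genes were named where they had the 12 highest or 12 lowest log2 differences of those called by more than 2-fold, with all D14 libraries beyond all Untreated libraries and at least 3 TPM in the higher group. The 6 largest differences each way from the mean of D3 and D28 were named under the same conditions. Symbols made from clone names were passed over, as were entries with only an Ensembl ID, and some genes that met these rules are not reported here. From each list the examples were the largest change each way, the most abundant member and members that define the list; members that lacked a call or were singled out for a value were named after their values were seen. The members and lists were chosen with earlier results of these data known. Alternatives were another pseudocount (0.1), no filter or a filter of 1 TPM, a filter over all libraries, quantile normalization, median-ratio size factors, a fit of the compared groups alone, a replicate block, array weights, no limit on the fold change and each library left out. A fit without the D28WO libraries and a test of protein-coding genes alone were chosen after seeing the data. U87 was not analysed here.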

Additional observations from a re-analysis of the deposited data

Results flagged for a closer look

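The D14 libraries differed from the other treated U251 groups under direct tests of each difference in limma, by more than 2-fold at an adjusted p under 0.05. Against D3, 780 genes were higher in D14, among them the growth factor gene CSF2 and the chemokine gene CXCL2, and 634 were lower, led by the galectin-like gene LGALS17A. Against D28, 392 genes were higher, with the receptor gene LGR5 among them, and 787 were lower, among them the chemokine gene CXCL10 at a log2 difference of -3.77. Against D28WO, 1315 genes were higher and 371 lower, and the growth factor gene CSF2 differed by 3.21. Against the mean of D3 and D28, 497 genes were higher and 611 lower. A difference of treated groups from each other in the tests is what singled these counts out. All 4 comparisons use the same D14 libraries, and the cause of the differences was not tested. They also use genes kept by their level in D14 and Untreated, so the balance of higher and lower counts may lean toward higher.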

How the results depend on the processing

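Among alternative values for counts of genes and libraries 123 stayed within 1.5 times the reported count or on the same side of the test, 4 were higher and 3 lower. Quantile normalization gave 720 genes higher and 497 lower than in Untreated, against 1150 and 258, and 837 higher and 638 lower than at D28WO, against 1315 and 371; it sets all libraries to the same distribution. The test of protein-coding genes alone gave 729 higher, by fewer genes tested. Without a limit on the fold change 3351 were higher and 1771 lower. Median-ratio size factors gave 1003 and 316, and a pseudocount of 0.1 gave 1512 and 257. The median over all genes was -0.017 after quantile normalization, 0.014 with median-ratio size factors and 0.109 with the other pseudocount.

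Leaving out each library gave 955 to 1169 genes higher and 195 to 328 lower than in Untreated, 679 to 791 and 554 to 717 against D3, 333 to 388 and 644 to 865 against D28, 1214 to 1304 and 336 to 449 against D28WO, and 437 to 504 and 519 to 740 against the mean of D3 and D28. The replicate block gave 1141 and 252 against Untreated. Deviations of same-numbered Untreated and D14 libraries correlated at 0.018, -0.015 and 0.014, so no pairing was seen between these groups. The other groups were not compared in this way. The block changed no count by over 1.5 times.

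Of 146 genes followed through the alternatives 111 had no change of call or sign. Of the differences whose sign changed, VIM alone had a call, at 0.26 after quantile normalization (limma adjusted p = 0.036). There NPM1 gained a call at 0.2, while FOS stood at 0.18, CSF1 at 0.08 and ISG20 at -0.01, and with median-ratio size factors IFITM2 and PARP9 stood at -0.02 and NPM1 at -0.09. With each library left out in turn, values ran from -0.05 to 0.07 for FOS, from -0.04 to 0.03 for CSF1, from -0.05 to 0.21 for ISG20 and from -0.03 to 0.05 for NPM1. The cause was not tested. TPM keeps no depth, so the precision of low values was not estimated.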

Other observations

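Genes of growth pathways were also followed from Untreated to D14. Of 29 tested genes of the PI3K, AKT and mTOR pathway 5 rose, 3 fell and 21 gave no call, where 14.6% of all genes tested rose and 7.74% fell, with a median of 0.05 that turns to -0.01 after quantile normalization and -0.04 with median-ratio scaling, where 3 rose and 5 fell. PIK3R3, a regulatory subunit of PI3K, read 11.2, 8.78 and 9.65 TPM in Untreated and 18.9, 23.2 and 23.1 TPM in D14, a log2 difference of 1.06 (limma adjusted p = 0.00074). FOXO1, a transcription factor held in check by AKT, read 34.1, 29.6 and 24.9 TPM and 20.6, 17.6 and 17.3 TPM and fell by 0.64 on the log2 scale. For both genes the groups did not overlap. Of 18 MYC and nucleolar genes 8 rose and 1 fell (median 0.25). NOP2, a ribosomal RNA methyltransferase, rose by 0.84. The fall was in MYC itself, by 0.23, a call lost in 7 of 15 alternatives, and NPM1, the most abundant member, stood at 0 (adjusted p = 1), with another sign in 5 of 15 alternatives and a rise of 0.2 after quantile normalization (adjusted p = 0.0047).

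Energy genes gave few calls. Of 80 nuclear respiratory chain genes none rose and 5 fell (median -0.06), with 3 rises and 2 falls after quantile normalization and 15 falls with median-ratio scaling. Over all genes tested 14.6% rose and 7.74% fell, so the 5 falls are near the share expected of any list. SDHA, the flavoprotein of complex II, fell by 0.32, a call lost in 4 of 15 alternatives. Of 14 mitochondrially encoded genes MT-RNR2, the large ribosomal RNA, was the only call and fell by 0.72 (median -0.15, which turns to 0.04 after quantile normalization). Of 5 metallothionein genes tested 2 fell (median -0.43). MT1E read 328, 289.7 and 307 TPM in Untreated and 177, 155 and 140.1 TPM in D14, and MT1F 148, 152 and 159 TPM and 86.9, 86.4 and 87 TPM. Both groups lay apart, while the most abundant member MT2A gave no call (adjusted p = 0.14) except in 1 of 15 alternatives.

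Genes of 405 olfactory receptors, which glial cells are not known to use, summed to 48.3, 35.89 and 27.82 TPM in the Untreated libraries and to 51.04, 51.03 and 45.45 TPM in the D14 libraries. The ranges overlapped, and the difference in means of 11.84 TPM had a two-sided exact permutation p = 0.2.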
